A study of Homo sapiens with 15 samples.

Results

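The genes described here encode fibronectin (FN1), 5 matricellular proteins (TNC, POSTN, SPARC, THBS1 and THBS2), 3 small leucine-rich proteoglycans (DCN, LUM and BGN) and fibroblast activation protein (FAP). They were chosen by name, as 10 matrix genes of fibroblasts, out of 17138 protein-coding genes listed for the series. All 10 were listed in MRC5 cells and 9 of them in H196 cells, where BGN was not analysed here. RNA sequencing was done on MRC5 fibroblasts cultured alone (MRC5_Mo), co-cultured with H69 cells (MRC5_coH69) or co-cultured with H196 cells (MRC5_coH196), and on H196 cells cultured alone (H196_Mo) or co-cultured with MRC5 cells (H196_Co), with 3 libraries per group. MRC5 is a lung fibroblast line. H69 and H196 are small cell lung cancer (SCLC) lines, of the neuroendocrine (NE) and the non-NE subtype respectively, and the labels name no genetic change in any group. In co-culture the partners shared medium across a porous insert for a week, so that each co-cultured fibroblast group is 1 cell line exposed to 1 tumor line. Co-cultured H69 cells were not analysed here. The paper states that SCLC lines were grown in RPMI and MRC5 cells in MEM, and does not give the medium of the co-cultures. A change of medium thus cannot be told apart from exposure to a partner, nor a difference in medium from one between the lines. As listed on GRCh38.p13, FN1 lies at chr2:215319808-215551781, TNC at chr9:114850968-115122449, POSTN at chr13:37562585-37641980, SPARC at chr5:151661096-151686975, THBS1 at chr15:39581079-39599466, THBS2 at chr6:169215785-169253846, BGN at chrX:153494953-153509546 and FAP at chr2:162170684-162245151, and the values are sums over all transcripts of a gene.

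Fibronectin is secreted by fibroblasts and assembled into fibrils by integrins, and it forms a scaffold on which other matrix is deposited. Matricellular proteins sit in the same matrix but act mainly as regulators of adhesion, growth factor activity and vessel growth. Small leucine-rich proteoglycans bind collagen fibrils and control their spacing, and decorin and biglycan carry chondroitin or dermatan sulfate chains. FAP is a membrane-bound serine protease used widely as a marker of cancer-associated fibroblasts (CAFs).

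Promoters are shown for THBS2, BGN, TNC and POSTN, the members called in at least 1 comparison of MRC5 groups, and for FN1, the most abundant member. RefSeq (GRCh38.p14) gave a promoter for 7 of the 10 members, and none was given for DCN, LUM and FAP. Each line below holds the 250 bases before the transcription start, 5′ to 3′. Capitals mark matches on either strand to the core of the TATA box (TATAA) and to 1 form of the core of the hypoxia response element (ACGTG).
THBS2 (chr6:169253847-169254096, minus strand): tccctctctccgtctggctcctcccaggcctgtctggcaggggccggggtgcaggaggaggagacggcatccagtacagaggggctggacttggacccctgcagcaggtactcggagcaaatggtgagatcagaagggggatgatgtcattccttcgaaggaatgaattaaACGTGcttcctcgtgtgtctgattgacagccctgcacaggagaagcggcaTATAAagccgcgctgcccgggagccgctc
BGN (chrX:153494730-153494979, plus strand): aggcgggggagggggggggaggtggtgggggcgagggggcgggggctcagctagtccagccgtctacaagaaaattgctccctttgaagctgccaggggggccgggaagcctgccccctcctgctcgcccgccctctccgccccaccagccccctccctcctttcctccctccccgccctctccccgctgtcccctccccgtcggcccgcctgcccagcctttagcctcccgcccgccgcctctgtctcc
TNC (chr9:115118158-115118407, minus strand): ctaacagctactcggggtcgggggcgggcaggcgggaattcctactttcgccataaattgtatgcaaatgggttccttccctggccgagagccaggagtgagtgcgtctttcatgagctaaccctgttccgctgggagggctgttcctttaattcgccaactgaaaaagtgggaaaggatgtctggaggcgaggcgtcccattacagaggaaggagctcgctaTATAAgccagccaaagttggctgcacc
POSTN (chr13:37598769-37599018, minus strand): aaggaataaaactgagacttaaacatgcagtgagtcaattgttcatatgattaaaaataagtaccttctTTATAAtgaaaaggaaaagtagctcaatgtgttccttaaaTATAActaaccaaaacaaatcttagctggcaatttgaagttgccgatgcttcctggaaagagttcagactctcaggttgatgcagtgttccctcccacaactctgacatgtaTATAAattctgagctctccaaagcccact
FN1 (chr2:215436069-215436318, minus strand): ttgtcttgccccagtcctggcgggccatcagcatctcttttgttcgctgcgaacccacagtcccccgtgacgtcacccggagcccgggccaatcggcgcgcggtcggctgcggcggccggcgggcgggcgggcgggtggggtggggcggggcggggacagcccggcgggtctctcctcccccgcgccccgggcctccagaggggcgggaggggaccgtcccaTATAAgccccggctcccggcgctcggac
The TATA box core, TATAA, began at position -29 in THBS2, -27 in TNC, -29 in POSTN and -28 in FN1, counted from the transcription start, with further copies upstream in POSTN, and none was found in BGN. Both a member that rose with H196 cells (THBS2) and one that fell (TNC) thus carried this motif at the usual distance. Of 35116 promoters of this length, 18.9% held a TATAA on either strand. The core of the hypoxia response element is A or G followed by CGTG, and only the form ACGTG was searched. It was present in THBS2, at position -79, and in none of the other 6 promoters, against 18.5% of all promoters. The form GCGTG was not counted, although the THBS1 promoter holds it. GGGCGG, the core of a GC box, was found 5 times in BGN, 6 times in FN1, 4 times in THBS1 and 1 time in TNC. Copies partly overlapped in FN1, and 42.6% of all promoters held the motif. The GC content was 74.0% in BGN and 36.4% in POSTN, against a median of 58.0% over all promoters.

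Each library held between 16073597 and 19170560 counts. The fibroblast label held, as all 8 fibroblast markers were detected in every MRC5 group, with a summed level of 32228 to 34667 CPM (counts scaled to the library total) in MRC5_Mo, 34649 to 35870 in MRC5_coH69 and 20037 to 21220 in MRC5_coH196. The collagens COL1A1, COL1A2 and COL3A1 were lower in MRC5_coH196, with COL1A1 at 4158 to 4564 CPM against 14218 to 15413 CPM in MRC5_Mo, while VIM was higher, at 8768 to 9230 CPM against 6420 to 6770 CPM, as was PDGFRB, at 444 to 474 CPM against 316 to 343 CPM. In H196_Mo cells, 7 of these markers were listed, VIM made up nearly all of their 4770 to 5241 CPM, and the fibroblast collagens COL1A1 and COL1A2 were at or under 1.67 CPM. Of 8 NE markers, 3 were listed in MRC5 cells and summed to at most 1.12 CPM. In H196_Mo cells the same markers summed to 24.9 to 27.7 CPM and 3 non-NE markers to 359 to 411 CPM, but the latter also reached 372 to 382 CPM in MRC5_Mo and 435 to 456 CPM in MRC5_coH196. The 5 epithelial markers summed to 125 to 131 CPM in MRC5_Mo, 149 to 167 in MRC5_coH69, 128 to 136 in MRC5_coH196 and 212 to 273 in H196 cells. RNA of H196 cells in the fibroblast libraries was followed with 99 genes of H196 cells that MRC5_Mo lacked, which summed to 9.49 to 10.4 CPM in MRC5_Mo, 8.68 to 10.8 CPM in MRC5_coH69 and 23.9 to 62.4 CPM in MRC5_coH196, against 7848 to 8127 CPM in H196_Mo, and the part of this RNA in the level of BGN was not tested. All of the libraries are bulk RNA, in which fewer cells of a type and less RNA per cell cannot be told apart. The labels do not say that the libraries of a group came from separate cultures, so the p-values measure the spread between these libraries, which may be technical.

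The 10 genes together took 2.09% to 2.32% of all counts in MRC5 libraries. FN1 alone accounted for 59.5% to 61.6% of the members' counts in MRC5_Mo and MRC5_coH69 libraries, and for 65.8% to 67.1% in MRC5_coH196. Levels between genes were compared as FPKM (fragments scaled to transcript length and library total), which corrects for transcript length. In MRC5_Mo the order by mean FPKM was FN1, SPARC, THBS1, DCN, TNC, BGN, LUM, POSTN, FAP and THBS2, from 1691 ± 53.3 (SD, n = 3) down to 6.51 ± 0.0300 (SD, n = 3). FN1 ranked 44 of 16382 genes in MRC5_Mo, SPARC 93 and THBS1 185, whereas THBS2 ranked 7429. Most neighbours in this order were apart by far more than their spread, but BGN (100.1 ± 5.86 FPKM) and LUM (86.1 ± 7.95 FPKM) lay close, as did POSTN (36.6 ± 8.01 FPKM) and FAP (32.2 ± 1.86 FPKM), whose libraries overlapped. In MRC5_coH196 the order below DCN became BGN, LUM, TNC, FAP, POSTN and THBS2, so that TNC moved from rank 5 to rank 7 among the members.

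**Figure D1:**
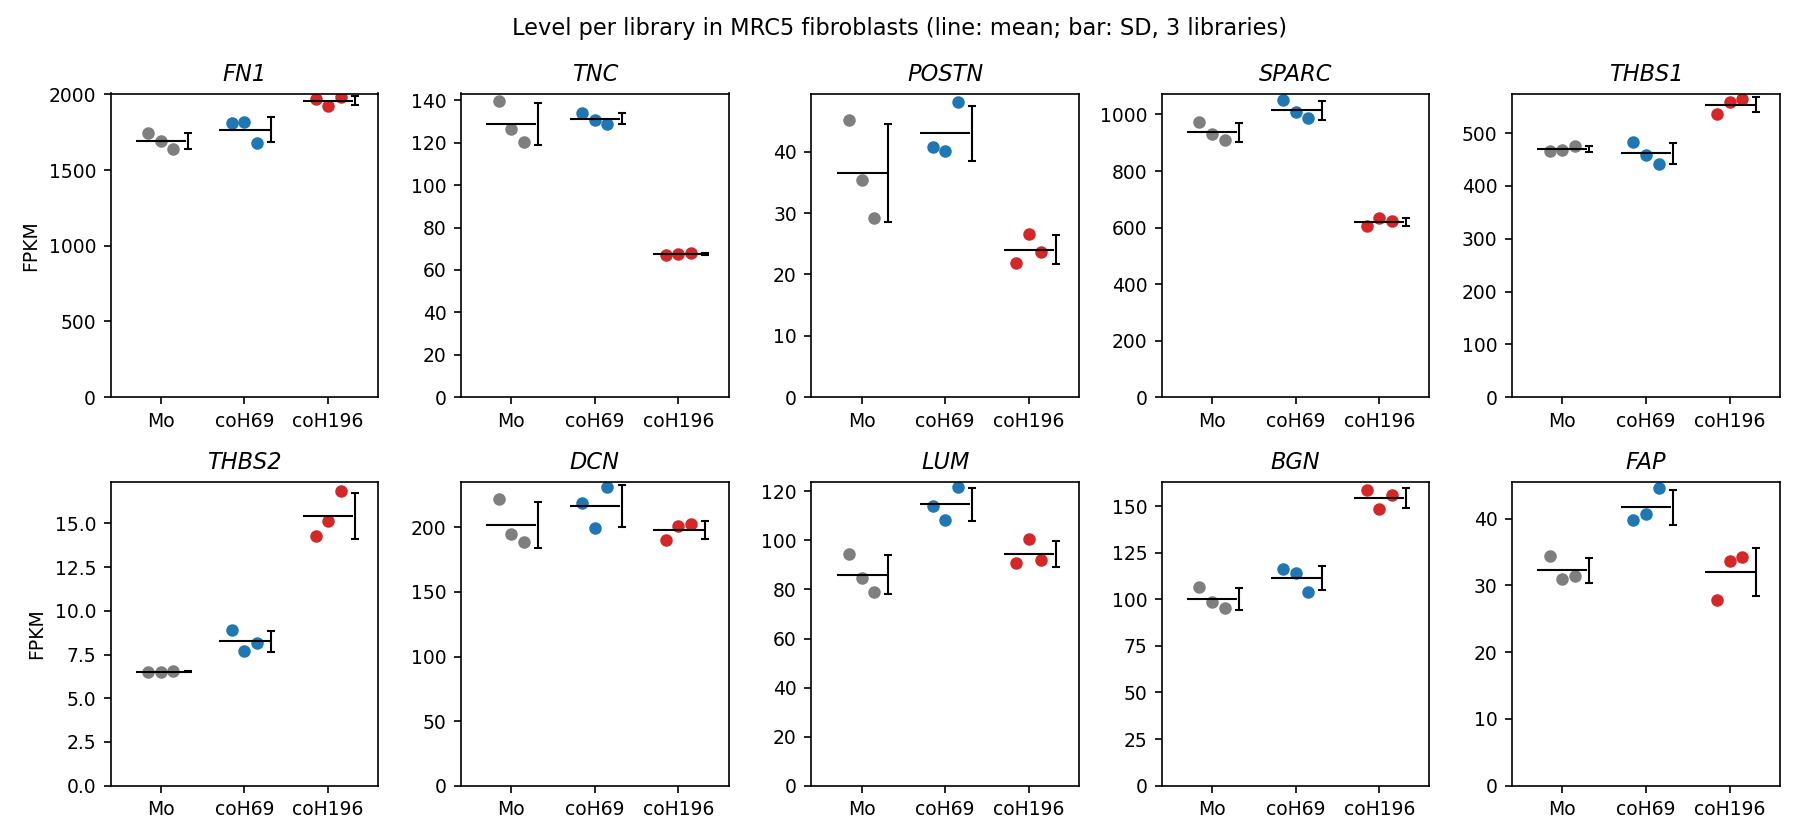
FPKM (vertical axis, linear from 0) of the 10 members in each library of MRC5_Mo, MRC5_coH69 and MRC5_coH196, with the mean (line) and SD (bar) of 3 libraries. THBS2, BGN, FN1 and THBS1 are highest in MRC5_coH196, TNC, SPARC and POSTN are lowest there, and LUM and FAP are highest in MRC5_coH69.

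The first comparison asked what H196 co-culture did to these genes in fibroblasts. A gene was called changed when its adjusted p in edgeR's quasi-likelihood test was under 0.05 over all genes tested and its absolute log2 fold change was above 0.58. Between MRC5_coH196 and MRC5_Mo, 3 of the 10 members were called: THBS2 and BGN rose and TNC fell. Of all 12819 genes tested 31.9% were called (17.2% higher and 14.7% lower), a share close to that of the members. All 10 passed the adjusted p alone, as did 74.3% of all genes. The libraries of both groups did not overlap in CPM scaled with TMM factors for 8 of 10 members, against 75.5% of genes tested. The median log2 fold change of the members was 0.23, and single members ran from -0.78 to 1.44. On FPKM the median of all genes in this comparison was -0.13 (log2(FPKM + 1)), and the called genes split into 915 higher and 2082 lower, in place of 2207 and 1885.

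THBS2, an antiangiogenic thrombospondin that also limits matrix metalloproteinase activity, changed most. Its level was 6.51, 6.48 and 6.54 FPKM in the MRC5_Mo libraries, 8.89, 7.70 and 8.17 FPKM in MRC5_coH69, and 14.3, 15.2 and 16.9 FPKM in MRC5_coH196. The 3 groups did not overlap, and the order was MRC5_Mo, MRC5_coH69, MRC5_coH196. With H196 cells THBS2 rose by log2 1.44 ± 0.063 (SE, adjusted p = 2.6e-16), or 2.71-fold, a larger change than that of 94.8% of genes tested. Its counts went from 1933 over 3 libraries to 4695. H196 cells themselves held 2 THBS2 counts in each H196_Mo library, or 0.118 CPM, while THBS2 was at 34.4 CPM in MRC5_Mo and 82.7 CPM in MRC5_coH196.

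THBS1, the better known relative that activates latent TGF-β and binds CD47 and CD36, was expressed far above THBS2. It was at 466, 468 and 476 FPKM in MRC5_Mo, at 483, 459 and 442 FPKM in MRC5_coH69, and at 537, 560 and 565 FPKM in MRC5_coH196. MRC5_coH196 lay above both other groups, which overlapped. The difference from MRC5_Mo was log2 0.40 ± 0.041 (SE, adjusted p = 3.15e-09), under the fold limit. Within a library, the FPKM ratio of THBS2 to THBS1 does not depend on scaling. Its geometric mean was 0.0139 in MRC5_Mo, 0.0179 in MRC5_coH69 and 0.0278 in MRC5_coH196. The log2 ratio differed by 1.01 between MRC5_coH196 and MRC5_Mo (2-sided exact permutation p = 0.1, the smallest that 3 against 3 libraries allow, adjusted p = 0.124 over 21 such tests of 7 ratios).

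Tenascin-C (TNC) is a large adhesion-modulating glycoprotein of wounds and tumor stroma, and it fell. Its level was 139.6, 126.4 and 120.4 FPKM in MRC5_Mo, 134.3, 130.8 and 129.0 FPKM in MRC5_coH69, and 67.1, 67.5 and 67.9 FPKM in MRC5_coH196. The MRC5_coH196 libraries lay well below the others, with a coefficient of variation of 0.593%, while MRC5_Mo and MRC5_coH69 overlapped. With H196 cells TNC fell by 0.78 on the log2 scale (SE 0.047, adjusted p = 1.36e-13), to 0.582 of the MRC5_Mo level. FN1 went the other way. It was at 1744, 1691 and 1637 FPKM in MRC5_Mo, at 1808, 1819 and 1676 FPKM in MRC5_coH69, and at 1969, 1924 and 1980 FPKM in MRC5_coH196. All 3 MRC5_coH196 libraries exceeded the others, by log2 0.38 ± 0.043 over MRC5_Mo (SE, adjusted p = 1.33e-08), which is under the fold limit and near the middle of all changes (49.5% of genes changed less). The FPKM ratio of TNC to FN1 within a library was 0.0761 in MRC5_Mo, 0.0744 in MRC5_coH69 and 0.0345 in MRC5_coH196 (MRC5_coH196 against MRC5_Mo, exact permutation p = 0.1, adjusted p = 0.124).

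SPARC, a collagen-binding glycoprotein that acts in fibril assembly, was the most abundant matricellular gene. Its level was 974, 929.9 and 909 FPKM in MRC5_Mo, 1052, 1008 and 986 FPKM in MRC5_coH69, and 606, 634 and 623 FPKM in MRC5_coH196. The 3 groups did not overlap, with MRC5_coH69 highest and MRC5_coH196 lowest. The difference of MRC5_coH196 from MRC5_Mo was log2 -0.42 ± 0.041 (SE, adjusted p = 1.32e-09), under the fold limit in edgeR, and -0.59 on log2(FPKM + 1), just past it. The ratio of SPARC to FN1 was 0.554 in MRC5_Mo and 0.317 in MRC5_coH196 (exact permutation p = 0.1, adjusted p = 0.124).

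Periostin (POSTN), which binds collagen and tenascin and marks matrix-producing CAFs, had the largest spread of the 10 members within MRC5_Mo and within MRC5_coH69, whereas FAP did within MRC5_coH196. It was at 45.1, 35.4 and 29.2 FPKM in MRC5_Mo, at 40.8, 40.1 and 48.2 FPKM in MRC5_coH69, and at 21.9, 26.6 and 23.6 FPKM in MRC5_coH196. The MRC5_coH196 libraries were lowest without overlap, and the MRC5_Mo libraries spread over a coefficient of variation of 21.9%. The difference from MRC5_Mo was log2 -0.44 ± 0.097 (SE, adjusted p = 0.000239), under the fold limit. Without MRC5_Mo replicate 1, which was the highest of its group for 8 of the 10 members, it was -0.26, and without MRC5_Mo replicate 3 it was -0.58, just past the limit.

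Among the proteoglycans, biglycan (BGN), which can also signal through Toll-like receptors once released, rose. It was at 106.5, 98.8 and 95.1 FPKM in MRC5_Mo, at 116.4, 113.9 and 104.2 FPKM in MRC5_coH69, and at 158.5, 148.3 and 156.0 FPKM in MRC5_coH196. MRC5_coH196 stood above both other groups, which overlapped. The increase over MRC5_Mo was log2 0.80 ± 0.052 (SE, adjusted p = 5.92e-13), or 1.74-fold. Decorin (DCN), which binds collagen and TGF-β, showed no such separation. Its level was 222, 195 and 189 FPKM in MRC5_Mo, 219, 199 and 231 FPKM in MRC5_coH69, and 190, 201 and 203 FPKM in MRC5_coH196. The groups overlapped, and the log2 difference between MRC5_coH196 and MRC5_Mo of 0.15 ± 0.053 (SE, adjusted p = 0.0150) turned to -0.02 on log2(FPKM + 1).

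Lumican (LUM), a keratan sulfate proteoglycan, was at 94.7, 84.6 and 79.0 FPKM in MRC5_Mo, at 114.1, 108.3 and 121.7 FPKM in MRC5_coH69, and at 90.7, 100.6 and 91.9 FPKM in MRC5_coH196. MRC5_coH69 was the highest group without overlap in FPKM, while MRC5_Mo and MRC5_coH196 overlapped in FPKM but not in CPM scaled with TMM factors. The difference of MRC5_coH196 from MRC5_Mo was log2 0.30 ± 0.055 (SE, adjusted p = 2.13e-05), under the fold limit, and 0.13 on log2(FPKM + 1) with limma's adjusted p = 0.0866. LUM and DCN are neighbours on chromosome 12 (GRCh38.p13, LUM chr12:91102629-91111494 and DCN chr12:91140484-91182817), 28989 bases apart. Their FPKM ratio within a library, LUM to DCN, was 0.427 in MRC5_Mo, 0.530 in MRC5_coH69 and 0.476 in MRC5_coH196, and no pair of groups overlapped (exact permutation p = 0.1, adjusted p = 0.124 for each). The ratio of BGN to DCN was 0.497 in MRC5_Mo and 0.779 in MRC5_coH196, again without overlap.

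FAP was at 34.4, 30.9 and 31.5 FPKM in MRC5_Mo, at 39.8, 40.7 and 44.7 FPKM in MRC5_coH69, and at 27.8, 33.7 and 34.3 FPKM in MRC5_coH196. MRC5_Mo and MRC5_coH196 overlapped. The log2 difference between them was 0.15 ± 0.063 (SE, adjusted p = 0.0314) in edgeR and -0.02 on log2(FPKM + 1), so that neither FAP nor DCN had a direction that held on both scales. The plot on both scales shows the shift that all members share.

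**Figure D2:**
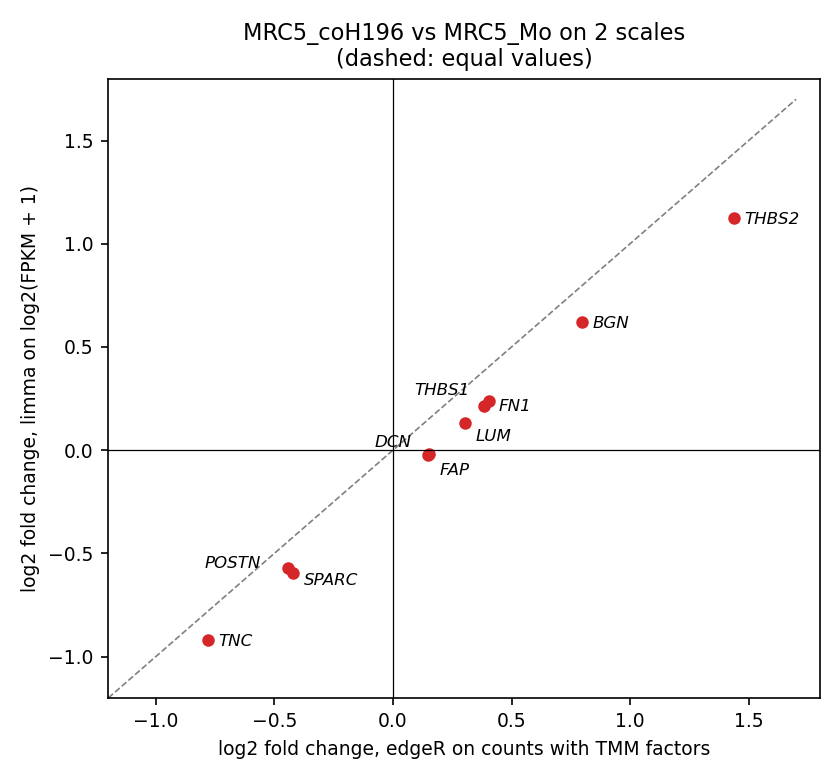
Log2 fold change of the 10 members between MRC5_coH196 and MRC5_Mo, from edgeR on counts with TMM factors (horizontal axis) and from limma on log2(FPKM + 1) (vertical axis), with a dashed line where both are equal. All points lie below the line, and DCN and FAP cross from 0.15 to -0.02 while THBS2, BGN and TNC keep their direction.

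The second comparison asked whether H69 cells, of the NE subtype, had the same effect. Between MRC5_coH69 and MRC5_Mo, 0 of the 10 members were called by edgeR or by DESeq2, against 0.554% of all genes tested. By the adjusted p alone 3 members were higher (6.70% of genes tested passed, 3.78% higher and 2.93% lower), and by an unadjusted p under 0.05 it was 7 members (20.1% of genes). These 3 were LUM, at log2 0.42 ± 0.054 (SE, adjusted p = 1.01e-05), FAP, at 0.38 ± 0.062 (SE, adjusted p = 0.000246), and THBS2, at 0.38 ± 0.067 (SE, adjusted p = 0.000612). Each of these small differences was larger than that of over 94% of genes tested in this comparison, and their libraries did not overlap with those of MRC5_Mo (25.7% of genes tested). SPARC did not overlap either, at log2 0.13 ± 0.041 (SE, adjusted p = 0.0605). TNC, FN1 and THBS1 differed by log2 0.03, 0.08 and -0.01, with normal 95% intervals of -0.06 to 0.12, -0.01 to 0.16 and -0.09 to 0.07.

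Both partners were then set side by side. Between MRC5_coH196 and MRC5_coH69, 4 of the 10 members were called, against 28.2% of genes tested (15.2% higher and 13.1% lower). THBS2 was higher with H196 cells by log2 1.06 ± 0.061 (SE, adjusted p = 7.16e-14) and BGN by 0.63 ± 0.051 (SE, adjusted p = 5.81e-11). TNC was lower with H196 cells, at log2 -0.81 ± 0.047 (SE, adjusted p = 7.67e-14), and so was POSTN, at -0.69 ± 0.097 (SE, adjusted p = 7.09e-07). BGN was at 0.47 on log2(FPKM + 1), under the fold limit, while SPARC was at -0.55 in edgeR and at -0.71 on that scale. FN1 and THBS1 were higher with H196 cells by log2 0.31 (adjusted p = 6.41e-07) and 0.42 (adjusted p = 2.26e-09). FAP was at -0.23 (adjusted p = 0.00193), and LUM was at -0.12 (adjusted p = 0.0504). On log2(FPKM + 1) LUM was at -0.28 with limma's adjusted p = 0.00246, and in edgeR with only these 2 groups its adjusted p was 0.0301. DCN, at 0.03 (adjusted p = 0.594), had a 95% interval of -0.07 to 0.14. The comparisons of MRC5_coH196 and of MRC5_coH69 with MRC5_Mo share their control libraries, and this comparison shares libraries with each.

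**Figure D3:**
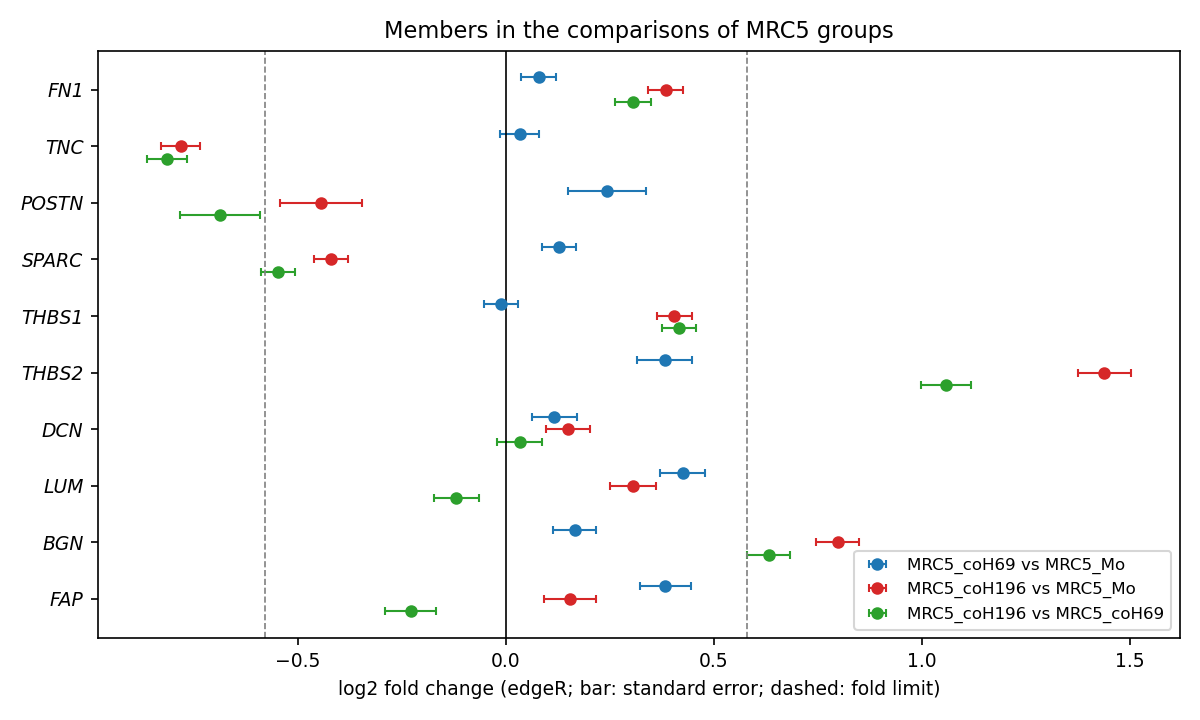
Log2 fold change (horizontal axis) with its standard error for the 10 members in the 3 comparisons of MRC5 groups, from edgeR, with dashed lines at the fold limit of 0.58. THBS2 (1.44 and 1.06) and BGN (0.80 and 0.63) lie to the right of the limit in both comparisons of MRC5_coH196, TNC (-0.78 and -0.81) lies to the left, and no point of MRC5_coH69 against MRC5_Mo is past it.

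H196 cells were compared with the fibroblasts to see which partner supplied these transcripts. The 9 members listed in both lines took 0.0174% to 0.0252% of counts in H196 libraries. FN1 was the only one of them at an appreciable level in H196_Mo, at 26.3, 26.6 and 29.8 FPKM. THBS1 followed at 1.64 to 2.02 FPKM, TNC at 0.80 to 0.92 and SPARC at 0.49 to 0.62, and the other 5 members stayed at or under 0.22 FPKM. FN1, TNC, SPARC, THBS1 and DCN, which passed the filter on low counts in H196 cells, were called lower in H196_Mo than in MRC5_Mo, against 61.7% of all genes called (30.2% lower). POSTN, THBS2, LUM and FAP entered that fit only through the fibroblasts, where they are high, so their difference is given as counts without a call. The level of FN1 in CPM was 61.2 times higher in MRC5_Mo than in H196_Mo, with a 95% counting interval of 60.1 to 62.4. For TNC the ratio was 152 (135 to 171), for THBS1 259 (238 to 283) and for SPARC 1734 (1406 to 2165). LUM had 2 counts in all of H196_Mo and 11551 in MRC5_Mo, and FAP 2 and 4385, which leaves ratios of 5222 (1445 to 43123) and 1982 (548 to 16374). These intervals cover counting error only. In co-culture the same 5 members were called lower in H196_Co than in MRC5_coH196 (66.3% of genes called, 31.5% lower).

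**Figure D4:**
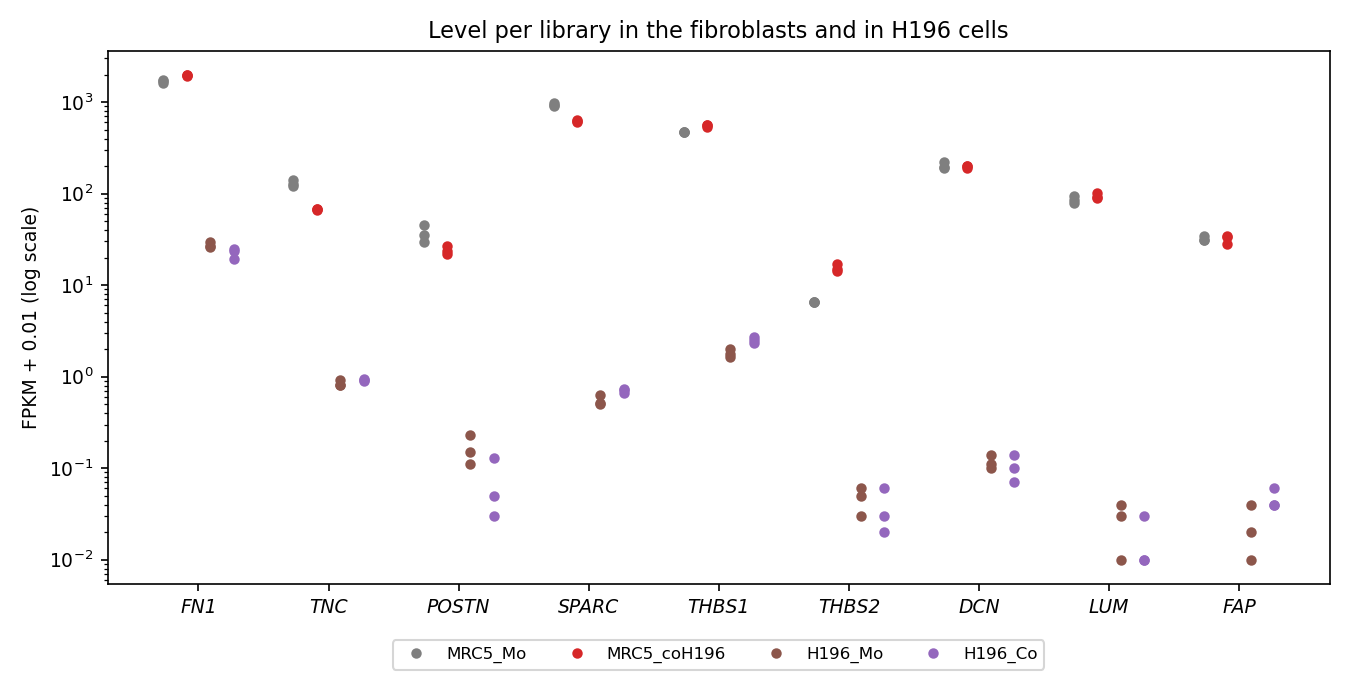
FPKM plus 0.01 on a log axis for the 9 members listed in both cell lines, 1 point per library, in MRC5_Mo, MRC5_coH196, H196_Mo and H196_Co. Each member is far higher in the fibroblasts than in H196 cells, and FN1, at 19.4 to 29.8 FPKM, is the highest member in H196 cells.

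Within H196 cells, 5 members passed the filter on low counts, and 0 of them was called between H196_Co and H196_Mo by edgeR or DESeq2, against 3.86% of genes tested. By the adjusted p alone it was 1 (19.8% of genes), and by an unadjusted p under 0.05 it was 3 (33.5% of genes). THBS1 was that gene. It was at 1.64, 1.75 and 2.02 FPKM in H196_Mo, and at 2.33, 2.68 and 2.50 FPKM in H196_Co, without overlap, and the difference was log2 0.53 ± 0.11 (SE, adjusted p = 0.00193). Without H196_Mo replicate 3 it was 0.62, past the fold limit. FN1 went from 26.3, 26.6 and 29.8 FPKM to 19.4, 24.6 and 23.9 FPKM, with a log2 difference of -0.21 ± 0.082 (SE, adjusted p = 0.0769). The adjusted p of FN1 was 0.0439 with limma on log2(FPKM + 1) and 0.0475 in edgeR's fit of all 15 libraries, and it was 0.0334 without H196_Co replicate 2 and 0.348 without H196_Mo replicate 3. SPARC was at 25, 28 and 34 counts in H196_Mo and at 39, 38 and 35 in H196_Co, with a log2 difference of 0.43 ± 0.21 (SE, adjusted p = 0.149). TNC, at 90, 110 and 92 counts against 100, 109 and 103, did not separate (adjusted p = 0.401), and nor did DCN, at 33 against 30 counts summed over each group (adjusted p = 0.916). POSTN, THBS2, LUM and FAP, at 22, 6, 2 and 2 counts over H196_Mo and 9, 7, 1 and 4 over H196_Co, were too low to test. RNA of MRC5 cells in the H196 libraries was followed with 157 genes, other than the members, that MRC5_Mo expressed and H196_Mo lacked. They summed to 15.4 to 15.9 CPM in H196_Mo and 18.8 to 20.8 CPM in H196_Co, against 35859 to 38906 CPM in MRC5_Mo, and the part of this RNA in the levels of THBS1 and SPARC in H196_Co was not tested.

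The responses of both partners to the same co-culture were set against each other in a fit over all 15 libraries. In this fit TNC, at log2 -0.79 in fibroblasts and 0.18 in H196 cells, differed by 0.97 ± 0.13 (SE, adjusted p = 6.09e-07). SPARC, at -0.43 and 0.45, differed by 0.88 ± 0.19 (SE, adjusted p = 0.000316). FN1, at 0.37 and -0.19, differed by -0.57 ± 0.099 (SE, adjusted p = 2.46e-05), just under the fold limit, while DESeq2 put it at -0.61, past the limit. TNC and SPARC were thus called by edgeR, of the 5 members that passed the filter on low counts in H196 cells, against 24.7% of all genes. DESeq2 called 3 members. POSTN, THBS2, LUM and FAP entered this fit only through the fibroblasts, so they are left out of that count. THBS1, at 0.39 and 0.54, did not pass the threshold (0.15 ± 0.11, SE, adjusted p = 0.267), with a 95% interval of -0.07 to 0.36. SPARC rested on 25 to 39 counts per H196 library, and the part of MRC5 RNA in its H196_Co level was not tested. The other members rest on fewer H196 counts still, as the SE of 0.81 for THBS2 and 1.5 for LUM shows.

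**Figure D5:**
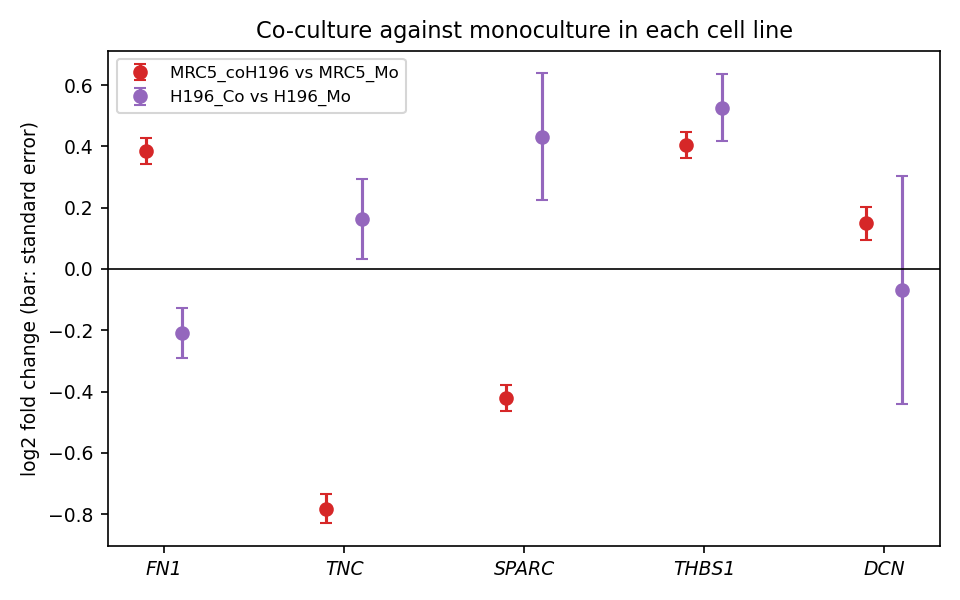
Log2 fold change with its standard error (vertical axis) of the 5 members that could be tested in both lines, for MRC5_coH196 against MRC5_Mo (fit of 9 libraries) and for H196_Co against H196_Mo (fit of 6 libraries). FN1, TNC, SPARC and DCN lie on opposite sides of 0 in fibroblasts and H196 cells, but none of them passed the adjusted p in H196 cells in this fit. THBS1 lies above 0 in both, at 0.40 and 0.53.

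The wider families were followed through lists of related genes. Their counts stand beside 17.2% of all genes called higher and 14.7% called lower in MRC5_coH196 against MRC5_Mo. The lists were chosen with earlier results of these data known, so their counts are a description and no test against these shares. Of the relatives of tenascins, thrombospondins and periostin, 5 of 7 could be tested in fibroblasts and 4 of these rose with H196 cells. TNXB, a tenascin that organizes collagen, rose by log2 3.18 ± 0.23 (SE, adjusted p = 6.22e-12), COMP, the cartilage thrombospondin, by 1.58 ± 0.30 (adjusted p = 3.8e-05), and TGFBI, a paralog of periostin, by 1.48 ± 0.042 (adjusted p = 3.4e-20). The median of the list was 1.48, against -0.003 for all genes. Of 6 small leucine-rich proteoglycans tested besides the members, 3 rose and 0 fell: fibromodulin (FMOD) by 1.26 ± 0.077 (adjusted p = 1.87e-13), podocan (PODN) by 0.86 (adjusted p = 4.04e-09) and tsukushi (TSKU) by 0.60 (adjusted p = 6.01e-08). Of 3 SPARC relatives tested, SPOCK1 rose, by 0.59 (adjusted p = 6.98e-10), and of 6 FAP relatives tested DPP7 did, by 0.61 (adjusted p = 4.31e-10), both close to the limit. A single call in lists this short cannot be told from the share of all genes.

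Receptors and the enzymes that build proteoglycan chains, listed in the same way, stand beside the 31.9% of all genes called in MRC5_coH196 against MRC5_Mo. Their counts are likewise a description only. Of 12 receptors for fibronectin and matricellular proteins tested, 6 rose and 1 fell with H196 cells, with a median log2 fold change of 0.43. The integrin subunits ITGB3 and ITGB5, which pair with the αv chain to bind fibronectin and periostin, rose by 1.15 ± 0.058 (adjusted p = 4.31e-15) and 1.11 ± 0.044 (adjusted p = 3.32e-17). CD36, a thrombospondin receptor, rose by 0.77 ± 0.26 (adjusted p = 0.01002). Of 18 genes of chondroitin and dermatan sulfate synthesis, 2 rose and 3 fell, a share close to that of all genes, with a median of -0.26. CSGALNACT2, which starts chondroitin chains, rose by 1.25 (adjusted p = 5.52e-16), whereas the epimerase relative DSEL was at -1.17 (adjusted p = 1.42e-17) and the sulfotransferase CHST11 at -0.89 (adjusted p = 4.22e-05). With H69 cells, where 0.554% of all genes tested were called, ITGB3 was the only gene of all 6 lists called, at log2 0.62 ± 0.059 (adjusted p = 7.8e-08). Between MRC5_coH196 and MRC5_coH69, 28.2% of all genes tested were called, 15.2% higher and 13.1% lower. Here 4 were higher and 0 lower of 5 tenascin, thrombospondin and periostin relatives, and 1 and 1 of 6 proteoglycans. The counts were 4 and 1 of 12 receptors, 2 and 4 of 18 chain enzymes, and 0 of 3 SPARC and 6 FAP relatives.

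Between H196_Co and H196_Mo, where 3.86% of all genes tested were called, TNXB (log2 0.80 ± 0.11, adjusted p = 4.24e-05) and COMP (0.68 ± 0.19, adjusted p = 0.0168) rose among 5 tested relatives, CHST15 rose (1.19 ± 0.36, adjusted p = 0.0240) and DSEL fell (-1.04 ± 0.11, adjusted p = 6.37e-07) among 18 chain enzymes, and none of 3 SPARC relatives, 1 proteoglycan, 10 receptors and 6 FAP relatives was called. The response of TNXB was smaller in H196 cells than in fibroblasts by log2 -2.36 ± 0.27 (adjusted p = 4.09e-08), and that of TGFBI by -1.05 ± 0.11 (adjusted p = 8.66e-09).

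The genes most like each member were found by Pearson correlation of log2 CPM over the 9 MRC5 libraries, among 9226 genes with a mean of at least 10 CPM. These libraries fall into groups of 3 that share a treatment, so that a high correlation mostly reflects the difference between groups. For THBS2 the closest were LIMS1, NUAK1 and CTTNBP2NL (r = 0.998, 0.996 and 0.996), for BGN PDGFRB, LZTS2 and HLA-C (0.998, 0.997 and 0.996), for THBS1 USP10, CSRNP1 and AVL9 (0.998, 0.994 and 0.992), and for FN1 FKBP10, BGN and NAV1 (0.995, 0.995 and 0.993). For TNC they were FADS1, MYLK and GPX4 (0.995 for each), and for SPARC PSMB10, RRBP1 and GBP3 (0.995, 0.994 and 0.992). Each of these 6 members had between 1598 and 2265 genes above 0.9. POSTN was closest to NABP1, GPC6 and CRNKL1 (0.966, 0.966 and 0.963), with 95 genes above 0.9. LUM was closest to LAMB1, NCOA7 and ITGA1 (0.960, 0.960 and 0.954), FAP to SH3GLB1, RGL1 and GPRC5B (0.971, 0.941 and 0.934), and DCN to TSC1, IL10RB and R3HCC1L (0.936, 0.927 and 0.923), with 26, 11 and 5 genes above 0.9. LUM, FAP and DCN thus had the fewest genes with a like pattern.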

How the data were processed

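Total RNA from TRIzol extraction was enriched for mRNA by oligo(dT) and sequenced on a BGISEQ-500. Read cleaning by the authors used SOAPnuke, mapping used HISAT on GRCh38.p13, and genes were quantified with Bowtie2 and RSEM, and the submitters' processing notes give HISAT2 2.1.0, Bowtie2 2.3.4.3 and RSEM 1.3.1. The deposited tables, 1 for MRC5 (16382 genes) and 1 for H196 (16076 genes), hold RSEM expected counts per library, of which 93.7% and 92.1% were whole, and FPKM values that the authors scaled by transcript length and library total. The other 30 per-library columns (TPM and the authors' normalized counts) were not used.

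Expected counts were rounded and tested with edgeR 4.0.16 (TMM factors, filterByExpr, quasi-likelihood F test, Benjamini-Hochberg adjustment over all genes tested) in R 4.3.3. The SE was derived from the F statistic, as |log2 fold change| over its root. MRC5 comparisons came from 1 fit of 9 libraries (12819 genes), H196_Co against H196_Mo from 6 libraries (12806 genes), and comparisons between the lines from 15 libraries (13585 genes in both tables). Intervals of log2 fold changes are normal 95% intervals, and those of ratios of counts are exact binomial. Ratios within a library were tested with exact permutation tests (scipy 1.17.1), adjusted over 21 tests. Alternatives were DESeq2 1.42.0, limma 3.58.1 on log2 FPKM with a pseudocount of 1 or 0.1, changed low-count filters and fold limits, sample sets and a replicate block, and each library left out in turn. The scripts were tested on simulated data.

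Genes were named by rule: the 10 members in every comparison, at most the 3 largest called changes of each related list, and the 3 genes most correlated with each member. Marker lists for RNA of the other line took genes at 20 CPM or more in each library of one line cultured alone and under 0.5 CPM in those of the other. The members and lists were chosen with earlier results of these data known.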

Additional observations from a re-analysis of the deposited data

Results flagged for a closer look

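The responses of both partners to the same co-culture, H196_Co against H196_Mo and MRC5_coH196 against MRC5_Mo, differed for 3 members in edgeR's fit of all 15 libraries. The log2 response in H196 cells minus that in fibroblasts was 0.97 for TNC (adjusted p = 6.09e-07), 0.88 for SPARC (adjusted p = 0.000316) and -0.57 for FN1 (adjusted p = 2.46e-05). The FN1 difference was under the fold limit, and SPARC rested on 25 to 39 counts per H196 library. In H196 cells alone none of these 3 genes passed the adjusted p in the fit of 6 libraries, but FN1 did in the fit of all 15 (adjusted p = 0.0475).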

How the results depend on the processing

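With no fold limit, the genes called were 9522 for MRC5_coH196 against MRC5_Mo (4092 with the limit), 859 for MRC5_coH69 against MRC5_Mo (71), 9269 for MRC5_coH196 against MRC5_coH69 (3618), 2538 for H196_Co against H196_Mo (494) and 6958 for the response difference (3357), and the members called were 10, 3, 8 and 1 in the first 4. With a limit of log2 1 the genes were 1564, 9, 1353, 147 and 1257, and the members 1, 0, 1, 0 and 0. In MRC5_coH69 against MRC5_Mo, DESeq2 called 40 genes, limma on log2(FPKM + 1) 18 and the fit of all 15 libraries 44, and in H196_Co against H196_Mo limma on log2(FPKM + 1) called 195. On log2(FPKM + 0.1), 5 members were called in MRC5_coH196 against MRC5_Mo, beside 4306 of 12819 genes tested. With at least 10 counts in every library, only 4 members could be tested between the lines. These 4 were called in H196_Mo against MRC5_Mo (6168 genes called) and in H196_Co against MRC5_coH196 (6781 genes called).

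On FPKM the split of higher against lower calls moved. On log2(FPKM + 1) and log2(FPKM + 0.1) it was 915 to 2082 and 1437 to 2869 for MRC5_coH196 against MRC5_Mo (2207 to 1885 in edgeR), 821 to 1746 and 1281 to 2567 for MRC5_coH196 against MRC5_coH69 (1943 to 1675), 5277 to 2451 and 6072 to 2840 for H196_Mo against MRC5_Mo (4279 to 4100), 5932 to 2496 and 6692 to 2863 for H196_Co against MRC5_coH196 (4727 to 4283), and 1560 to 822 and 2179 to 1334 for the response difference (1713 to 1644). It was 17 to 1 on log2(FPKM + 1) for MRC5_coH69 against MRC5_Mo (54 to 17), and 306 to 111 on log2(FPKM + 0.1) for H196_Co against H196_Mo (417 to 77). On both FPKM scales DCN reversed to -0.023 and FAP to -0.017 and -0.018 in MRC5_coH196 against MRC5_Mo, and DCN to -0.13 in MRC5_coH196 against MRC5_coH69. On log2(FPKM + 1) the response difference reversed to 0.45 for POSTN and to 0.0051 for DCN. In H196_Mo and H196_Co, mean levels were 0.15 and 0.06 FPKM for POSTN, and 0.11 and 0.09 FPKM for DCN. These lie well below the pseudocount of 1, so this scale cannot show a response of either gene in H196 cells. No conclusion is drawn from their reversal in the response difference. The TMM factors, which edgeR applied and FPKM lacks, were 1.045 to 1.046 in MRC5_Mo and 0.916 to 0.941 in MRC5_coH196. The cause of the other shifts on FPKM was not tested.

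With 1 library left out, the members called ranged from 0 to 1 in H196_Co against H196_Mo, where THBS1 was called without H196_Mo replicate 3. In MRC5_coH69 against MRC5_Mo, THBS1 ranged from -0.052 to 0.020 and TNC from -0.017 to 0.093. DCN ranged from -0.022 to 0.079 in MRC5_coH196 against MRC5_coH69, from -0.30 to 0.16 in H196_Co against H196_Mo and from -0.43 to 0.042 in the response difference. The members called in the response difference ranged from 2 to 3, and DESeq2 called 3, with FN1 past the limit. Over the alternatives FN1 ranged from -0.61 to -0.49, the latter under the limit. limma also called 3, but its count can include THBS2, which entered this fit only through the fibroblasts. It is therefore not read as the same result. Over all comparisons, the other alternatives left 453 member values on the same side of an adjusted p of 0.05 and in the same direction. A further 14 came to pass that threshold, 4 no longer passed it and 8 changed direction. The 453 include the comparisons between the lines, where the differences were too large to move, and members that entered only through the fibroblasts. That count is therefore no measure of how stable the results are. Replicate numbers did not pair the samples (mean correlation of same-numbered libraries -0.02 in MRC5). A replicate block gave 4088, 70, 3612 and 471 called genes in the 4 comparisons within lines, 8378 and 9005 between lines and 3338 for the response difference, with the same numbers of members called. H196 levels of POSTN, THBS2, LUM and FAP are limited by depth.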
